A study of Rattus norvegicus with 12 samples.

Results

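The metabotropic glutamate receptors and the GABA-B receptor are the slow, G protein-coupled receptors for glutamate and for GABA, the main excitatory and inhibitory transmitters of the brain. They were described here by every probe set of the array that the annotation assigns to exactly 1 gene among Grm2, Grm3, Grm4, Grm5, Grm7, Grm8, Gabbr1 and Gabbr2. All 8 genes were on the array, among 14217 genes with such a probe set, and held 16 of its 31099 probe sets: 5 for Gabbr1, 3 for Grm8, 2 each for Grm5 and Gabbr2, and 1 each for Grm2, Grm3, Grm4 and Grm7. The samples were the left brain hemispheres of male Sprague-Dawley rats aged 8 weeks, taken 24 h after reperfusion. Of 12 rats, 7 had a middle cerebral artery occlusion (MCAO), a model of stroke in which the artery is blocked and then reopened, and 5 had a Sham operation. Neither the occluded side, the length of the occlusion nor the size of the infarct is stated in the labels. Each array held the RNA of 1 rat.

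Metabotropic glutamate receptors fall into 3 groups. Group I receptors couple to Gq and phospholipase C and sit mainly on the postsynaptic side, whereas groups II and III couple to Gi/o, lower cyclic AMP and mostly restrain transmitter release from nerve endings. The GABA-B receptor works as a pair of unlike subunits: the product of Gabbr1 binds GABA, and the product of Gabbr2 carries the pair to the cell surface and couples it to Gi/o, which opens potassium channels and inhibits calcium channels. Astrocytes carry some of these receptors too, the product of Grm3 in particular.

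Values are the deposited log2 signals. A probe set was called changed where limma's adjusted p was under 0.05, with adjustment over the 17244 probe sets tested. All 16 probe sets of the receptors passed the filter on low signal. Among the 16, 6 hardly varied at all (SD over the 12 arrays under 0.01, called near-constant here) and 10 did vary. Signals of different probe sets are on no common scale, so the receptors are not ranked by level. The mean log2 signal of 10 neuron markers lay between 10.85 and 11.24 in MCAO hemispheres and between 11.23 and 11.36 in Sham hemispheres. The array medians spanned 0.048 log2 units. The difference between the 3' and 5' beta-actin control probe sets, a measure of RNA integrity, was 1.27 to 1.47 in MCAO and 1.40 to 1.46 in Sham hemispheres (exact permutation test, two-sided, p = 0.0770), and without MCAO 4 the p was 0.0152.

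Both subunits of the GABA-B receptor had probe sets called lower after MCAO, at 2 of 5 for Gabbr1 and 1 of 2 for Gabbr2. No metabotropic glutamate receptor probe set passed the threshold in the fit over all tested probe sets, but Grm3 and Grm4 were called lower when the near-constant probe sets were left out of that fit (limma adjusted p = 0.0334 for Grm3 and 0.0309 for Grm4). Whether the GABA-B and glutamate receptors differed as classes was not tested. The 3 probe sets called lower were 2 of Gabbr1 and 1 of Gabbr2, and 0 were called higher. All 10 varying probe sets had a negative change, with a median of -0.35 on the log2 scale. Over the 8438 varying probe sets tested, the median change was 0.06, with a 25th percentile of -0.25 and a 75th percentile of 0.33. Among those, 30.7% were called lower and 37.0% higher, so 3 of 10 called lower is close to the background share. Over all 17244 tested probe sets, 19.7% were called lower (3396) and 22.7% higher (3921). Varying probe sets made up 2593 and 3118 of these calls, so calls also fell on near-constant probe sets elsewhere on the array. In 2 of the 10 varying probe sets every MCAO value lay below every Sham value, against 14.2% of all varying and 8.83% of all tested probe sets. The whole hemisphere was sampled, so fewer cells of a type and less RNA per cell cannot be told apart.

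**Figure D1:**
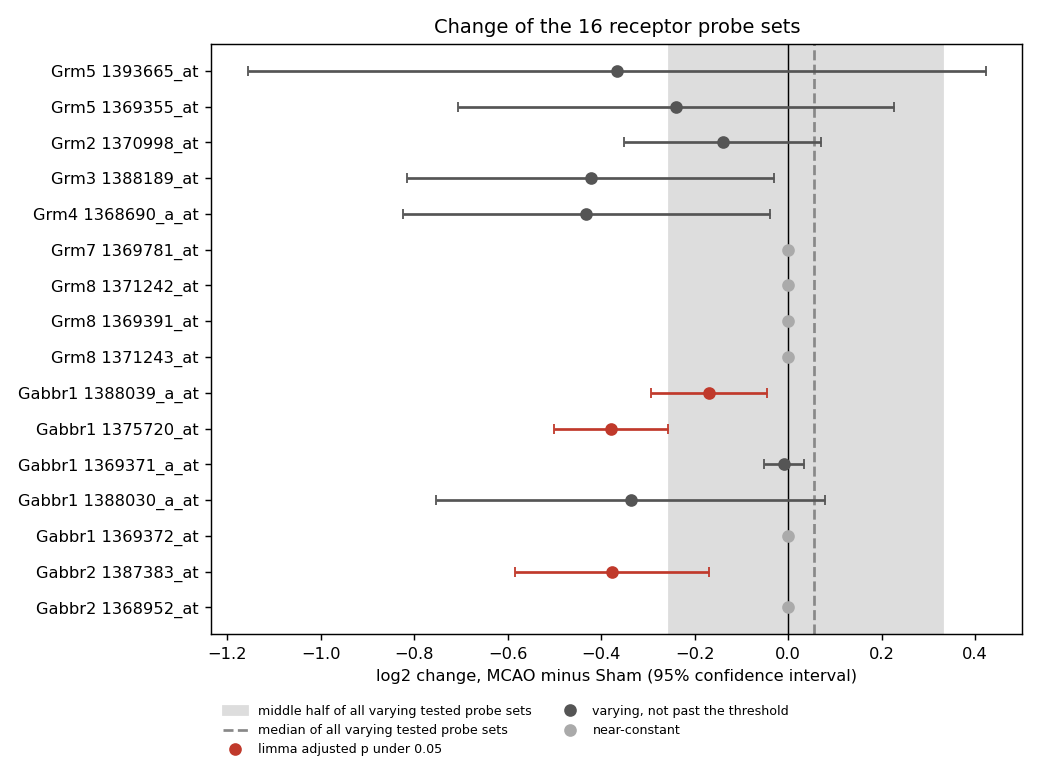
Log2 change, MCAO minus Sham, of the 16 receptor probe sets, with 95% confidence intervals from limma (7 MCAO and 5 Sham hemispheres). The Gabbr1 and Gabbr2 probe sets at -0.38 lie farthest below 0 relative to their intervals, and the 6 near-constant probe sets sit at 0.

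Grm5 encodes mGlu5, the group I receptor of the set, which is anchored at the postsynaptic density by Homer proteins. Its probe set with the higher mean (1393665_at) had a lowest signal of 7.28, a median of 7.66 and a highest of 8.81 in MCAO hemispheres, against 7.88, 8.91, 9.01, 7.51 and 7.69 in the 5 Sham hemispheres. Sham itself was split, with 2 hemispheres near 9 and 3 below 8, and only 12 of 8438 varying probe sets had a larger Sham SD. The groups overlapped, with 3 MCAO hemispheres below every Sham hemisphere and 4 within the Sham range. The change was -0.37 ± 0.36 (SE), with a limma adjusted p of 0.442 and a 95% interval of -1.16 to 0.42. It was -0.19 without Sham 2 and -0.16 without Sham 3.

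The second Grm5 probe set (1369355_at) had a lowest signal of 6.45, a median of 6.61 and a highest of 7.42 in MCAO hemispheres, against 6.80, 7.35, 7.39, 6.57 and 6.64 in Sham hemispheres. The same 3 hemispheres, MCAO 4, Sham 2 and Sham 3, were the highest at both Grm5 probe sets. The change was -0.24 ± 0.21 and did not pass (limma adjusted p = 0.390), and it was -0.14 without Sham 2 and -0.13 without Sham 3. For Grm5, then, the SD within each group exceeded the gap between the group means, and a change of either sign lies inside the interval.

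Group II consists of Grm2, whose product is a presynaptic autoreceptor of glutamatergic endings, and Grm3, whose product is found on neurons and astrocytes. Grm2 (1370998_at) had a lowest signal of 7.58, a median of 7.77 and a highest of 8.05 in MCAO hemispheres, against 7.85, 8.04, 8.12, 7.97 and 7.79 in Sham hemispheres. Of the 7 MCAO hemispheres, 4 lay below all Sham hemispheres and 3 among them. The change of -0.14 ± 0.09 did not pass (limma adjusted p = 0.261). With array weights it was -0.24 and passed (limma adjusted p = 0.0218).

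Grm3 (1388189_at) was 8.80, 9.06, 8.89, 9.82, 8.82, 8.79 and 9.42 in MCAO hemispheres, against a tight Sham group at 9.57, 9.56, 9.51, 9.52 and 9.38. Thus 5 MCAO hemispheres lay below every Sham value, MCAO 7 lay within the Sham range, and MCAO 4 lay above it. The mean was 9.09 ± 0.39 in MCAO and 9.51 ± 0.08 in Sham hemispheres (SD), a change of -0.42 ± 0.18 that did not pass (limma adjusted p = 0.0778). Without MCAO 4 the change was -0.54 and the limma adjusted p 0.00394. With all 12 hemispheres, the limma adjusted p was 0.0334 with near-constant probe sets left out and 0.00254 with array weights, so the missed call depended on these settings too.

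Against 34.0% called lower and 34.8% higher over all varying genes, the 9 varying astrocyte markers, set beside Grm3, gave 6 lower and 1 higher. Their mean signal ran between 10.50 and 10.90 in MCAO and between 10.71 and 10.76 in Sham hemispheres, with the highest value in MCAO 4. That mean includes Gfap, the 1 marker called higher, with means of 12.60 in MCAO and 10.69 in Sham hemispheres. The change of Gfap was 1.91 ± 0.12 (limma adjusted p = 7.48e-05), which raises the marker mean in every MCAO hemisphere relative to Sham. In MCAO 4 Gfap was 12.50, below its MCAO mean, so the first place of MCAO 4 among MCAO hemispheres is not due to Gfap. The part of astrocytes in the Grm3 values was not tested.

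Group III was represented by Grm4, Grm7 and Grm8, whose products act at presynaptic active zones. Grm4 (1368690_a_at) was 7.21, 8.24, 7.60, 7.36, 7.27, 7.11 and 7.46 in MCAO hemispheres, against 7.89, 8.15, 7.82, 7.78 and 7.86 in Sham hemispheres. Thus 6 of 7 MCAO hemispheres lay below every Sham hemisphere and MCAO 2 lay above all of them. The change of -0.43 ± 0.18 did not pass (limma adjusted p = 0.0722). Without MCAO 2 it was -0.56, with a limma adjusted p of 0.00182. With all 12 hemispheres, the limma adjusted p was 0.0309 with near-constant probe sets left out and 0.00326 with array weights.

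Grm4 is known for its abundance in cerebellar granule cells, and the signals of cerebellar genes varied widely between hemispheres of both groups. Gabra6, a GABA-A receptor subunit of cerebellar granule cells, had signals of 6.02, 9.15, 8.98, 5.85, 5.73, 6.97 and 5.72 in MCAO hemispheres, against 8.21, 8.94, 5.73, 5.75 and 8.34 in Sham hemispheres. MCAO 2 and MCAO 3, the 2 MCAO hemispheres with the highest Gabra6 signal, also had the highest Grm4 signals of the MCAO group. At Cbln1, another cerebellar marker, MCAO 1 (8.79), MCAO 5 (9.14) and MCAO 6 (8.86) exceeded MCAO 2 (8.72), unlike at Fat2, Pcp2 and Car8. Of 7 varying cerebellar markers 2 were called lower and 0 higher, against 34.0% and 34.8% of all varying genes. The mean of the 5 not called ran between 6.90 and 8.70 in MCAO and between 6.83 and 8.52 in Sham hemispheres. With that mean as a covariate, a fit added after the values had been seen, the Grm4 change was -0.41 and its limma adjusted p 0.0437.

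**Figure D2:**
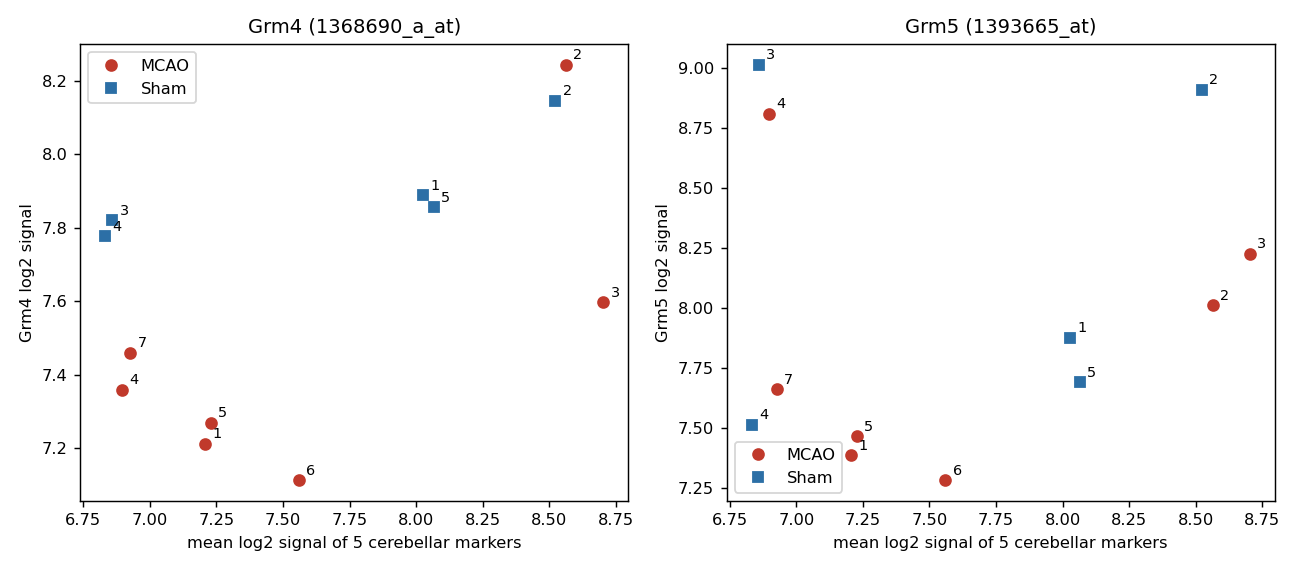
Log2 signal of Grm4 (left) and of Grm5 at 1393665_at (right) in each hemisphere, against the mean log2 signal of the 5 cerebellar markers not called between the groups; circles are MCAO, squares Sham, and numbers name the replicate. MCAO 2 stands at a Grm4 signal of 8.24 and a marker mean of 8.56, and 6 of 7 MCAO hemispheres lie below every Sham hemisphere on the Grm4 axis, whereas for Grm5 the high hemispheres (MCAO 4, Sham 2 and Sham 3) stand at both low and high marker means.

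Grm7 and Grm8 gave no measurable variation. The single Grm7 probe set, all 3 of Grm8, 1 of Gabbr1 and 1 of Gabbr2 formed the 6 near-constant probe sets, with means between 6.63 and 7.88, a largest SD over the 12 arrays of 0.00019 and a largest change of 0.00019 in size. In the fit over all tested probe sets, none of the 6 was called. At 1 of them (Grm8, 1371242_at) every MCAO value lay below every Sham value, within that same margin. Across the array 62.5% of the non-control probe sets were near-constant in this way, so these values give no level and no comparison for Grm7 or Grm8.

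Gabbr1, the GABA-binding subunit, was measured by 5 probe sets, of which 4 varied. Probe set 1375720_at was 10.32, 10.57, 10.38, 10.68, 10.52, 10.39 and 10.48 in MCAO hemispheres, against 10.84, 10.89, 10.86, 10.86 and 10.83 in Sham hemispheres. All 7 MCAO hemispheres lay below all 5 Sham hemispheres. The signal fell by 0.38 ± 0.05 on the log2 scale, which is 23.1% lower (limma adjusted p = 0.00143).

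The Gabbr1 probe set with the highest mean (1388039_a_at) was 10.70, 10.94, 10.67, 10.81, 10.70, 10.62 and 10.91 in MCAO hemispheres, against 10.94, 10.91, 10.96, 10.95 and 10.90 in Sham hemispheres. Here 5 MCAO hemispheres lay below the Sham range and MCAO 2 and MCAO 7 lay within it. The signal was lower by a change of -0.17 ± 0.06 (limma adjusted p = 0.0337). That call was lost, at limma adjusted p-values of 0.0576 to 0.0735, when any 1 of MCAO 1, MCAO 3, MCAO 5, MCAO 6, Sham 1, Sham 2, Sham 3 or Sham 4 was left out.

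The other varying probe sets of Gabbr1 did not pass. At 1388030_a_at the mean was 7.97 ± 0.41 in MCAO and 8.31 ± 0.09 in Sham hemispheres (SD), with MCAO 7 lowest at 7.18, and the change was -0.34 ± 0.19 (limma adjusted p = 0.174). Without MCAO 7 that change was -0.20 (limma adjusted p = 0.179). At 1369371_a_at the mean was 9.19 ± 0.04 in MCAO and 9.20 ± 0.02 in Sham hemispheres, a change of -0.01 ± 0.02 (limma adjusted p = 0.747). The probe sets of this 1 gene thus disagreed in size: the change at 1388039_a_at was smaller than that at 1375720_at by 0.21 ± 0.04, and all 7 MCAO hemispheres lay above all Sham hemispheres in this difference (exact permutation test, two-sided, p = 0.00379). This pair was chosen after its values had been seen. The transcripts that each probe set reads were not resolved here.

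Gabbr2, the subunit that couples the receptor to G proteins, varied at 1 of its 2 probe sets (1387383_at). It was 10.46, 10.84, 10.38, 10.60, 10.55, 10.31 and 10.77 in MCAO hemispheres, against 10.91, 11.06, 10.98, 10.87 and 10.85 in Sham hemispheres. No MCAO hemisphere reached the Sham range, although MCAO 2 came within 0.01 of its lower end. The signal fell by 0.38 ± 0.09 on the log2 scale, or 23.0% (limma adjusted p = 0.00987), and the call held with each hemisphere left out in turn.

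**Figure D3:**
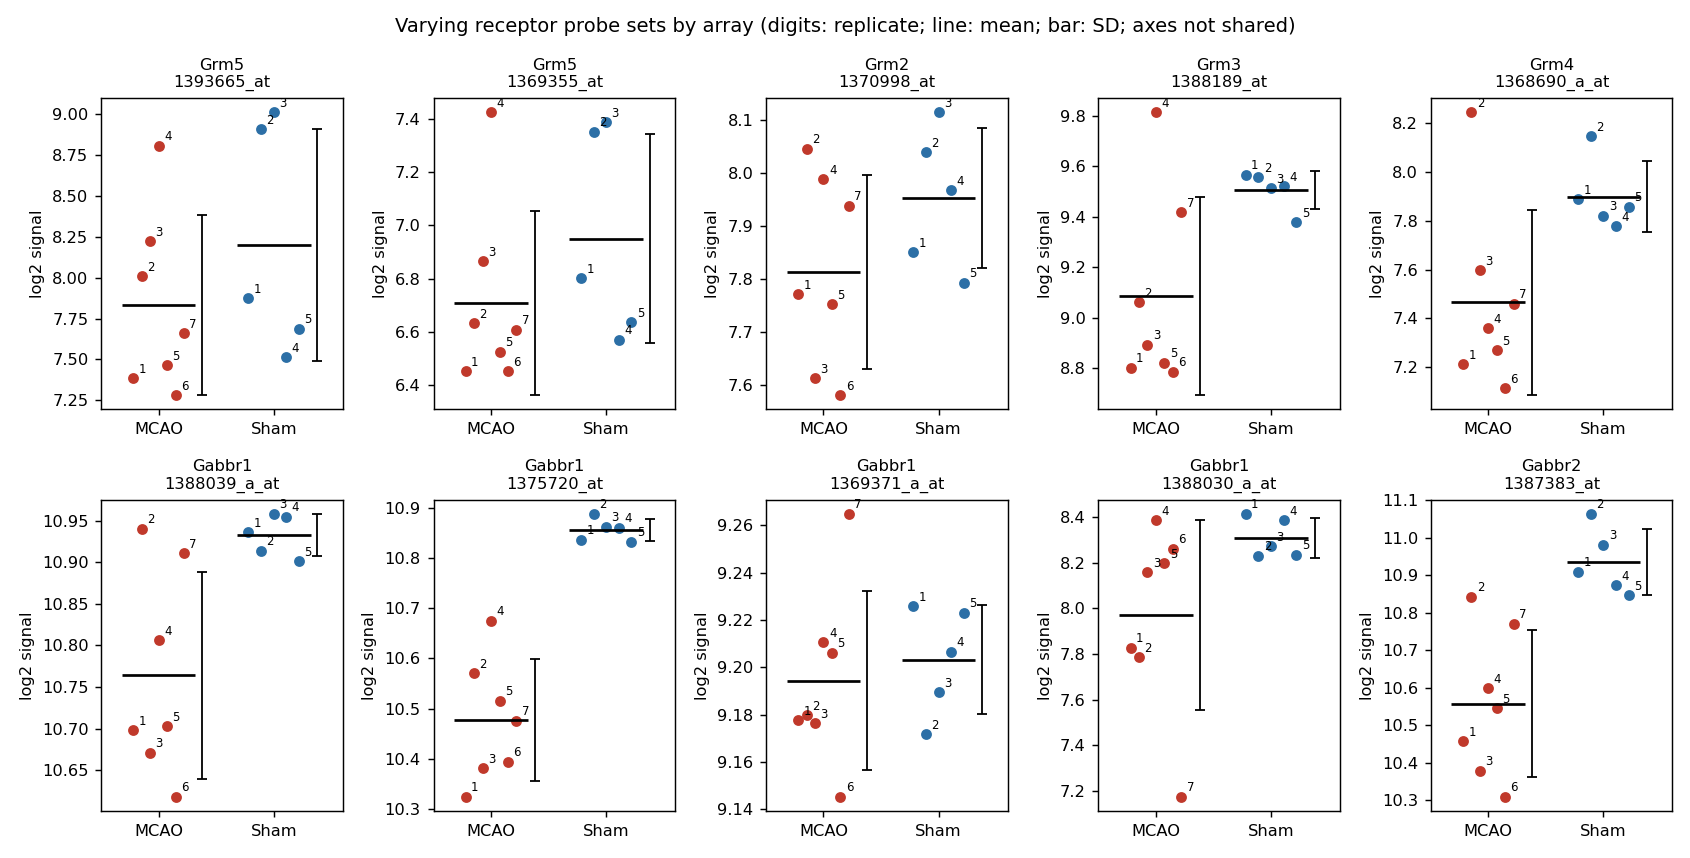
Log2 signal of each varying receptor probe set in every hemisphere, MCAO left and Sham right, with the group mean and SD; each panel has its own signal axis. At Gabbr1 1375720_at and Gabbr2 1387383_at the groups are apart, whereas at Grm3 and Grm4 a single MCAO hemisphere lies above all Sham hemispheres.

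Promoter sequences are shown for the GABA-B subunits because both had a probe set called lower. They run over 250 bases before to 50 after a transcription start, from RefSeq's annotation of GRCr8, and a sequence was held for 5 of the 8 genes (Grm5, Grm7, Grm8, Gabbr1 and Gabbr2). Gabbr1 lies at chr20:1499187-1499486 on the minus strand, a start within the annotated range of a gene with several transcripts, and Gabbr2 at chr5:66083646-66083945 on the minus strand. Capitals mark a GC box (GGGCGG) or a core of the cyclic AMP response element (TGACG) on either strand.
Gabbr1: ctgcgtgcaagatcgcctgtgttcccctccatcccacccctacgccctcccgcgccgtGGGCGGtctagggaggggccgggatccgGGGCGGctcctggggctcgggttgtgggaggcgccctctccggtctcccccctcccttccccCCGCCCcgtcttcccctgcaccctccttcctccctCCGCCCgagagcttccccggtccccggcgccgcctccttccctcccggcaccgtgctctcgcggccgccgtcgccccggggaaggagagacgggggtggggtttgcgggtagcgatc
Gabbr2: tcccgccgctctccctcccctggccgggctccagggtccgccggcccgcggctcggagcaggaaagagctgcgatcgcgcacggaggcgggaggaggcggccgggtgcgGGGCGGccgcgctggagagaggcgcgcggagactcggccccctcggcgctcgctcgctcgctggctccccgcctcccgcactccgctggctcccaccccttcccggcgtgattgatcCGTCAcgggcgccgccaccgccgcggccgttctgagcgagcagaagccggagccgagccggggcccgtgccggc
The Gabbr1 window holds 4 GC boxes, at 192, 164, 102 and 67 bases before the start, and the Gabbr2 window holds 1 GC box, at 141 bases before the start, and 1 such core, at 24 bases. The marked matches do not overlap. Both windows are rich in G and C, at 75% for Gabbr1 and 78.7% for Gabbr2, against a median of 51.7% over all 33469 promoter windows. A GC box stands in 33.1% of those windows and the core in 21.2%. The full element (TGACGTCA, in 1.83% of windows), the E box (CACGTG, in 6.42%) and the TATA box (TATAAA, in 14.2%) have no match in either window. The Grm5 window, at 37.3% G and C, and the Grm8 window, at 47.3%, have no match to any of these motifs. The Grm7 window, at 62%, holds 2 GC boxes, at 80 and 21 bases before the start. These matches describe letters in a window only.

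Differences in change between receptors were tested for 3 of 6 planned pairs, since the other 3 held a near-constant probe set. With the probe set of highest mean standing for each gene, Gabbr1 was less lowered than Gabbr2 by 0.21 ± 0.05 on the log2 scale, and all 7 MCAO hemispheres lay above all Sham hemispheres in this difference (exact permutation test, two-sided, p = 0.00253, adjusted over 3 pairs 0.00758). The smallest p that 792 splits allow is 0.00126. The result depended on the Gabbr1 probe set: with 1375720_at in its place the difference was -0.0015 (adjusted exact permutation p = 0.987). Grm2 minus Grm3 differed by 0.28 (adjusted exact permutation p = 0.114), and without MCAO 4 by 0.37 (adjusted 0.0130). Grm5 minus Grm3 differed by 0.06 (adjusted exact permutation p = 0.850).

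The receptors were also set beside neuron markers, of which 7 of 10 were called lower and 0 higher. Over the 6339 varying genes, 34.0% were called lower and 34.8% higher. The mean of the 10 markers was lower in MCAO by a difference of -0.27, and 1 MCAO hemisphere, MCAO 2, lay within the Sham range. Relative to that mean, Gabbr1 at 1388039_a_at was higher by 0.10 in MCAO (adjusted over 6 genes p = 0.00758, exact permutation test, two-sided, with all 7 MCAO above all Sham hemispheres). With 1375720_at the relative change of Gabbr1 was -0.11 (adjusted exact permutation p = 0.152). Gabbr2 had a relative change of -0.10 (adjusted p = 0.162), Grm2 0.13 (0.114), Grm3 -0.15 (0.436), Grm4 -0.16 (0.436) and Grm5 -0.09 (0.803), all from the exact permutation test. Without Sham 3 the Grm2 value was 0.17, with an adjusted exact permutation p of 0.0273. Relative to the median of the markers in place of their mean, Grm2 was higher by 0.20 with all 12 hemispheres (adjusted exact permutation p = 0.0303). The Grm3 value was -0.26 without MCAO 4 (adjusted exact permutation p = 0.0844). The Grm4 value was -0.25 without MCAO 2 and -0.10 without Sham 2 (adjusted exact permutation p = 0.0974 and 0.673). The Grm5 value was positive without Sham 2, at 0.08, and without Sham 3, at 0.11.

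The MCAO hemispheres differed among themselves in how many of the 10 varying receptor probe sets lay below all Sham hemispheres: 9 in MCAO 1, 4 in MCAO 2, 7 in MCAO 3, 4 in MCAO 4, 9 in MCAO 5, 9 in MCAO 6 and 4 in MCAO 7. MCAO 4 lay above all Sham hemispheres at 2 probe sets, and MCAO 2 and MCAO 7 at 1 each. On the first principal component of the 8438 varying probe sets, which held 74.7% of the variance, MCAO 4 and MCAO 2 were the MCAO hemispheres nearest to Sham. Without both, the number of receptor probe sets called lower was 5, Grm3 and Grm4 being added to the GABA-B probe sets, with limma adjusted p-values of 0.00481 for Grm3 and 0.00240 for Grm4. This setting was chosen after the values had been seen.

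**Figure D4:**
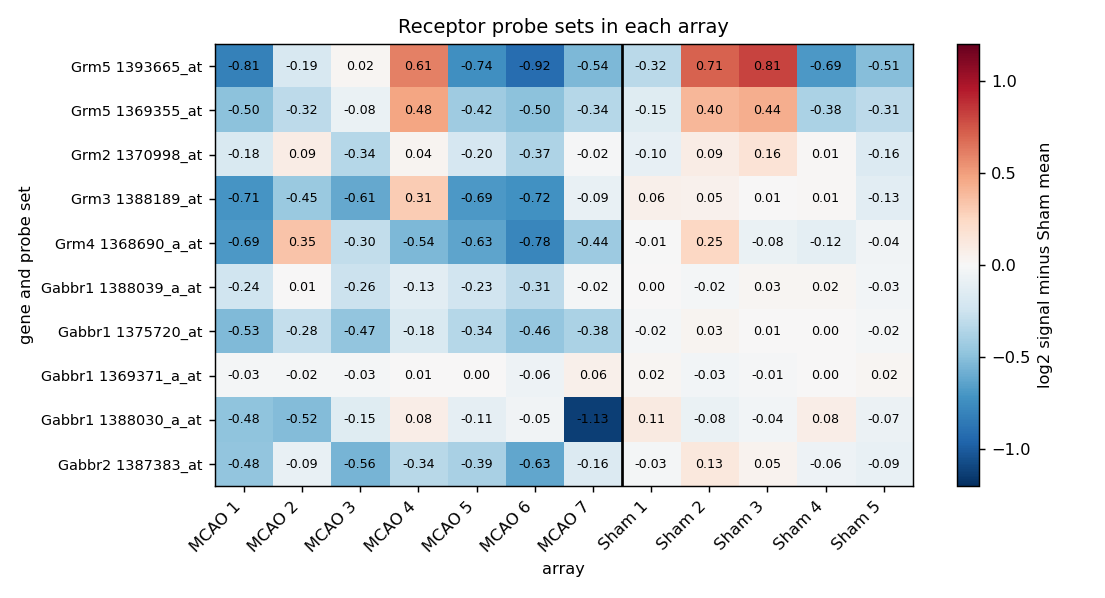
Log2 signal of the 10 varying receptor probe sets (rows) in each hemisphere (columns, MCAO then Sham), centred on the Sham mean of each probe set. MCAO 1, 5 and 6 are below all Sham hemispheres at 9 of 10 probe sets, whereas MCAO 4 is above them at 2.

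The genes whose profiles were nearest to each receptor were found by the root mean square difference of log2 values over the 12 hemispheres, each centred on its Sham mean, among 6333 varying genes outside the set. Gabbr1 (1388039_a_at) was nearest to Gnb1, a G protein beta subunit, at 0.0428, and to Trim2, a ubiquitin ligase, at 0.0475. Gabbr2 was nearest to Clstn1, a calsyntenin of postsynaptic membranes, at 0.0506, and to Coro2b, a coronin, at 0.0584. The nearest genes to Grm2 were Grik5, a kainate receptor subunit, at 0.0686 and Gripap1 at 0.0719.

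Grm3 was nearest to Camk2g, a calcium and calmodulin-dependent kinase subunit, at 0.101 and to Grp, the precursor of gastrin-releasing peptide, at 0.107. Grm4 was nearest to Reln, which encodes reelin and is made by cerebellar granule cells among others, at 0.133, and to Kcnc1, a Kv3 potassium channel subunit, at 0.150. Of the nearest genes to Grm5, Spetex2l1 stood at 0.391 and Glmn at 0.408. A small distance also follows from a small spread, so distances are not comparable between receptors.

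Downstream of the group I receptors stands the Gq and phospholipase C list. Of its 15 genes tested 6 were near-constant, and of the 9 varying genes 8 were called lower and 0 higher, with a median change of -0.38, against 34.0% called lower, 34.8% called higher and a median of 0.03 over the 6339 varying genes. Dgkb, a diacylglycerol kinase, was 9.39 ± 0.29 in MCAO and 10.18 ± 0.05 in Sham hemispheres (SD), a change of -0.79 ± 0.13 (limma adjusted p = 0.00219). Plcb1, a phospholipase C that Gq activates, ran between 10.13 and 10.71 in MCAO and between 10.92 and 11.10 in Sham hemispheres, a change of -0.60 ± 0.09 (limma adjusted p = 0.00183). In both genes all MCAO values lay below all Sham values. Itpr1, an IP3 receptor gene called lower in this list, is also one of the cerebellar markers. Cacng2, likewise called lower, encodes an auxiliary subunit of AMPA receptors and not a Gq or phospholipase C protein (change -0.18 ± 0.06, limma adjusted p = 0.0341). The gene not called was Gnaq, the Gq alpha subunit itself, with a change of 0.15 ± 0.08 (limma adjusted p = 0.174).

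Downstream of groups II and III and of GABA-B, the list of Gi/o proteins, adenylyl cyclases and GIRK channels gave 12 lower and 2 higher of 19 varying genes (22 tested), with a median of -0.22. The shares over all varying genes, 34.0% lower and 34.8% higher, apply beside this list and those below. Adcy5, the main adenylyl cyclase of the striatum, was 7.62 ± 0.09 in MCAO and 8.10 ± 0.08 in Sham hemispheres, a change of -0.48 ± 0.05 (limma adjusted p = 0.000374). Gng7, a G protein gamma subunit of striatal neurons, changed by -0.54 ± 0.07 (limma adjusted p = 0.00109). Gnb4, a beta subunit, had the larger limma statistic of the 2 higher genes, at 8.49 ± 0.19 in MCAO and 8.04 ± 0.12 in Sham hemispheres, a change of 0.45 ± 0.09 (limma adjusted p = 0.00474).

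The list of scaffolds and partners of these receptors gave 7 lower, 3 higher and 3 not called of 13 varying genes (21 tested), with a median of -0.19. Cyth2, a cytohesin exchange factor, was 9.21 ± 0.06 in MCAO and 9.43 ± 0.07 in Sham hemispheres, a change of -0.22 ± 0.04 (limma adjusted p = 0.00227). Homer3, a Homer scaffold that binds group I receptors, was 7.59 ± 0.14 in MCAO and 7.23 ± 0.08 in Sham hemispheres. Its change was 0.36 ± 0.07, with all MCAO above all Sham values (limma adjusted p = 0.00343). Homer1, another Homer scaffold of this list, went the other way. It was 10.13 ± 0.23 in MCAO and 10.48 ± 0.05 in Sham hemispheres, a change of -0.34 ± 0.10 (limma adjusted p = 0.0229).

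The RGS proteins, which speed the shut-off of G proteins, gave 3 lower and 2 higher of 12 varying genes (15 tested), with a median of -0.10. That is 25% lower, under the 34.0% of all varying genes. Gnb5, a beta subunit that pairs with RGS proteins and was called lower, stands in this list and in the Gi/o list. Rgs9, the striatal member, was 7.86 ± 0.20 in MCAO and 8.81 ± 0.09 in Sham hemispheres, a change of -0.95 ± 0.10 (limma adjusted p = 0.000385). Rgs16 was 9.07 ± 0.26 in MCAO and 8.24 ± 0.09 in Sham hemispheres, a change of 0.83 ± 0.12 (limma adjusted p = 0.00148). Of the 3 other varying receptors of the same family C (4 tested), Gprc5b was lower by a change of -0.61 ± 0.09 (limma adjusted p = 0.00166) and Gprc5a higher by 0.84 ± 0.27 (limma adjusted p = 0.0298). Without MCAO 2 and MCAO 4 the counts were 8 lower and 0 higher for the Gq list, 13 and 2 for the Gi/o list, 8 and 4 for the scaffolds, 3 and 2 for the RGS proteins and 1 and 1 for the other family C receptors.

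**Figure D5:**
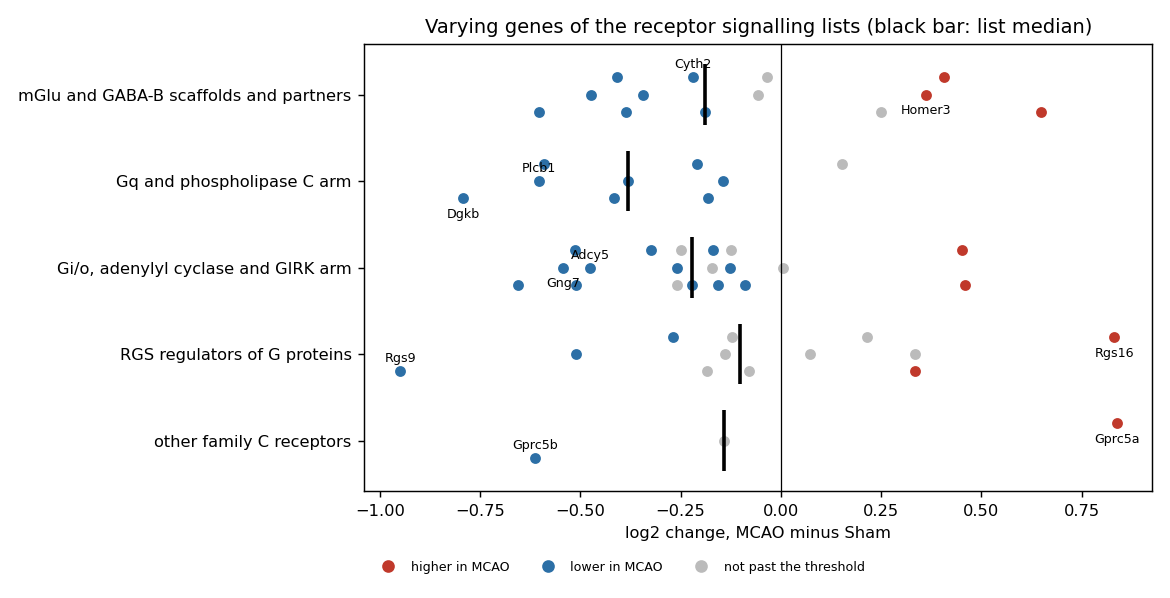
Log2 change, MCAO minus Sham, of each varying gene in the 5 signalling lists, coloured by whether it was called, with a bar at the list median. The Gq and phospholipase C list has 8 of 9 genes called lower and the lowest median, -0.38.

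Markers of brain regions and of cells other than neurons were counted in the same way, beside 34.0% lower and 34.8% higher over all varying genes. Striatal projection neuron markers, among them Rgs9, gave 7 lower and 0 higher of 8, and their mean ran between 8.26 and 8.54 in MCAO and between 9.08 and 9.19 in Sham hemispheres. Cortical projection neuron markers gave 3 lower and 0 higher of 4, with a mean between 8.07 and 8.64 in MCAO and between 8.72 and 8.80 in Sham hemispheres. Microglia markers gave 2 lower and 5 higher of 7, with a mean between 8.00 and 8.56 in MCAO and between 7.79 and 8.08 in Sham hemispheres. Blood leukocyte markers gave 0 lower and 5 higher of 5, with a mean between 7.28 and 8.46 in MCAO and between 6.47 and 6.63 in Sham hemispheres. Endothelial markers gave 1 lower and 3 higher of 5, thalamic markers 1 and 2 of 4, choroid plexus markers 0 and 1 of 4, oligodendrocyte markers 1 and 0 of 6, and oligodendrocyte precursor markers 0 and 0 of 2. Array signals have no true 0, so absence of a marker could not be read. The part of these cells and regions in the values of the receptors and their signalling genes was not tested.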

How the data were processed

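RNA from 7 MCAO and 5 Sham hemispheres was hybridised to rat expression arrays, with biotin-labelled cRNA per the labels' protocols. The deposited values, made by the authors, are log2 signals; the base is not stated and was inferred from the span of 5.00 to 14.0. The sources used here do not give the background correction, summarization or normalization. They were used as deposited, because the array medians spanned less than the limit of 0.3. The 12 arrays limit the precision, and no depth applies. Replicates are separate rats.

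Of 31099 probe sets, 57 were controls, 20826 had 1 gene, 436 several and 9780 none. Tested were the 17244 with 1 gene and, in 5 or more arrays, a value over 6.61 (the 25th percentile). The test was limma's lmFit and trended eBayes (version 3.58.1, R 4.3.3), two-sided, with Benjamini-Hochberg adjustment. Probe sets with an SD under 0.01 over the 12 arrays were kept in the fit and counted apart. Errors of changes are standard errors. The fit was tested on simulated data. Single differences were tested with exact permutation over 792 splits in Python 3.11.15. Lists have counts only, with the probe set of highest mean for each gene. In MCAO 6 all 57 controls stand 12 positions off (of 39 near-constant controls, 0 matched the other arrays within 0.05 before realignment and 39 after), and they were realigned for the 3' to 5' measure only.

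All probe sets of the receptors are named, the 2 genes of each signalling list with the largest limma statistic, the strongest of its minority direction, and the 2 nearest profiles of each receptor. Gnaq, Gabra6, Cbln1, Fat2, Pcp2, Car8, Gfap, Cacng2, Homer1 and the mention of single hemispheres were chosen after their values were seen. The receptors and lists were chosen with earlier results of these data known. Alternatives covered scaling, filters, probe sets per gene, the variance model, a rank-sum test, a replicate block and leaving out each array. Same-numbered MCAO and Sham arrays had correlations of -0.33 to 0.58, and 2 Sham arrays matched best with their own number. These values cannot decide whether the numbers pair the rats.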

Additional observations from a re-analysis of the deposited data

Results flagged for a closer look

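Single hemispheres were flagged as apart from their group at 3 receptor probe sets, by the gap to the nearest hemisphere as a share of the group's range. All 3 passed the limit narrowly, with shares of 0.575 and 0.572 against 0.568 in MCAO and 0.715 against 0.710 in Sham. MCAO 4 was at 7.42 at Grm5 1369355_at, above the other 6 MCAO hemispheres. MCAO 2 was at 8.24 at Grm4 1368690_a_at, likewise above the other MCAO hemispheres. Sham 5 was at 9.38 at Grm3 1388189_at, below the other 4 Sham hemispheres. Chance alone would mark about 1 in 20 independent groups of normal spread in this way, and probe sets of the same gene are not independent.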

How the results depend on the processing

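The number of receptor probe sets called lower was 3, and 0 were called higher under every alternative run. It was 6 with array weights (Grm2, Grm3 and Grm4 added), 5 with near-constant probe sets left out (Grm3 and Grm4 added), and 5 without MCAO 2 and MCAO 4, a setting chosen after seeing the data. Calls rose over the whole array too. Of all tested probe sets, 4524 were called lower with array weights and 4114 without MCAO 2 and MCAO 4, against 3396 in the main fit. With near-constant probe sets left out, 2777 of 8438 were called lower, against 2593 of these in the main fit. The receptor count ran from 2 to 4 when 1 hemisphere was left out. Gabbr1 1375720_at and Gabbr2 kept their calls under all alternatives run on them. Gabbr1 1388039_a_at lost its call with the exact rank-sum test (adjusted p = 0.0644). The number called lower stayed at 3 there, because a near-constant probe set was called. It was 4 with untrended eBayes and with quantile normalization, again with a near-constant probe set among them. Whether the arrays' numbers pair rats is not known. With the replicate block, 4063 of the tested probe sets were called in all, against 7317 without it, and Gabbr1 1388039_a_at was not called (limma adjusted p = 0.0798). With 1 hemisphere left out, 5694 to 8451 were called. Gabbr1 minus Gabbr2 was 0.15 with the mean of each gene's varying probe sets (adjusted exact permutation p = 0.284), -0.0015 with Gabbr1 1375720_at (0.987), and 0.17 to 0.23 with 1 hemisphere left out. Leaving out 1 hemisphere gave 0.24 to 0.37 for Grm2 minus Grm3 and -0.12 to 0.26 for Grm5 minus Grm3, which was negative without MCAO 3, Sham 1, Sham 4 or Sham 5. Relative to the neuron markers, it gave -0.28 to 0.11 for Grm5, positive without Sham 2 or Sham 3, and 0.11 to 0.17 for Grm2. With the marker median, Grm2 was at 0.20 (adjusted exact permutation p = 0.0303). Gabbr1 was at -0.11 with 1375720_at (0.152). Beyond what is set beside the results, the cause of these shifts was not tested. Signal near background was not assessed, since the table holds no detection values.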
